A study of Mus musculus with 8 samples.

Results

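The epidermal differentiation complex is a run of neighbouring genes, in the mouse on chromosome 3, that encode proteins of the outermost layers of the epidermis. It was followed here through every probe set whose single gene symbol starts with Lce, Sprr or S100a and a digit, or is Flg, Lor, Ivl, Rptn, Hrnr, Crnn, Tchh or Crct1. The rule found 46 of the 22626 mouse probe sets tested, and these stood for 38 of the 12393 genes measured. The members comprised 13 probe sets of 11 Lce genes, 9 probe sets of 9 Sprr genes, 13 probe sets of 11 S100a genes, 6 probe sets of the fused S100 type genes Flg, Hrnr, Rptn and Tchh, and 5 probe sets of Lor, Ivl and Crct1. Crnn had 0 probe sets. All 38 genes lay on chromosome 3 in the gene table used for names.

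Keratinocytes that leave the basal layer stop dividing, move outwards and finally replace their plasma membrane with a cornified envelope, a sheet of proteins joined by transglutaminases. Involucrin is laid down early as a scaffold, loricrin becomes the bulk of the envelope, small proline-rich (Sprr) proteins bridge other proteins in it, and late cornified envelope (Lce) proteins are added near the end. The fused S100 type proteins join a calcium-binding end to long repeats, and filaggrin, the best known of them, packs keratin filaments. S100a proteins are small calcium-binding proteins that many cell types of skin make, among them keratinocytes, hair cells, fibroblasts and leukocytes.

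The tissue was whole skin taken from newborn mice of the FVB strain and read on Affymetrix arrays. Each of 4 genotypes had 2 arrays, and each array held RNA pooled from 3 animals. The genotypes were pRb-/-;p107-/- (called the double mutant), pRb-/-;p107+/+ (the pRb single mutant), pRb+/+;p107-/- (the p107 single mutant) and pRb+/+. The p107 genotype of the pRb+/+ arrays is not stated in the labels and was taken as wild type. pRb and p107 are related proteins that bind E2F factors and hold back entry into S phase, and the study set the genotypes against each other in epidermis lacking pRb. The labels do not name the promoter or Cre that removed pRb, nor do they say whether dermal cells also lack it.

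The deposited values were z-scores, with mean 0 and SD 1 for each probe set over the 8 arrays. A score therefore orders the arrays for 1 probe set, in SD units, and gives neither a level nor a fold change. Scores over 8 arrays are bounded at 2.47, and a large difference therefore means that arrays part cleanly, not that the RNA changed by a large factor. Whether markers of skin were present or absent cannot be read from scores either. Differences are given with the standard error of a linear model over all 8 arrays, and a difference was called where its adjusted p (Benjamini-Hochberg, all 22626 probe sets) was below 0.05. The duplicates may be technical, and p-values then measure only the spread between such arrays.

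As checks on the labels, the probe set of Rb1, which encodes pRb, scored -1.56 and -1.28 in the double mutant against 0.02 and 0.40 in the p107 single mutant, and -0.22 and 0.36 in the pRb single mutant against 1.21 and 1.07 in pRb+/+. Of the Rbl1 probe sets, which read p107, 1424156_at scored -1.51 and -1.22 in the p107 single mutant against 0.08 and 0.21 in pRb+/+, and -0.31 and 0.31 in the double mutant against 1.30 and 1.14 in the pRb single mutant. On 1425166_at the scores were -1.53 and -1.12 in the p107 single mutant against 0.58 and 1.03 in pRb+/+, and -0.13 and -0.20 in the double mutant against 1.40 and -0.02 in the pRb single mutant. Across these pairs the groups overlapped: Rb1 in the pRb single mutant overlapped the p107 single mutant, and 1424156_at in the double mutant overlapped pRb+/+. Whether these probes lie in the deleted parts is not given. Array controls also differed with genotype: the median of 27 poly-A control probe sets was -0.84 on both double mutant arrays, 1.27 and 1.00 in the pRb single mutant, -0.48 and -0.44 in the p107 single mutant, and 0.21 and 0.12 in pRb+/+. The Gapdh controls were at 0.04 and -0.03 in the double mutant, 0.84 and 0.77 in the pRb single mutant, 0.80 and 0.57 in the p107 single mutant, and -1.47 and -1.52 in pRb+/+. The beta-actin controls were at -1.003 and -1.08 in the double mutant, 1.21 and 1.41 in the pRb single mutant, 0.05 and -0.02 in the p107 single mutant, and 0.30 and -0.86 in pRb+/+, and the hybridization controls reached 2.05 on 1 pRb+/+ array against at most 0.37 on any other. The part of these controls in the results below was not tested.

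Between the double mutant and pRb+/+, 12 of the 46 probe sets were called, where 2.94% of all probe sets were called. Higher were 6 (Sprr2d, Sprr2h, Sprr1b, Lor, Lce3c and Rptn), against 1.41% of all probe sets, and lower were 6 (Lce1i, Lce1h, Lce1a2, S100a6, S100a3 and Tchh), against 1.54%. Between the double mutant and the pRb single mutant 5 were called, where the share over all probe sets was 1.37%: Sprr2d, Sprr2h and S100a16 were higher, against 0.548%, and Lce1i and S100a6 were lower, against 0.822%. Between the double and the p107 single mutant 3 were called, where the share was 0.256%: Sprr2d and Sprr2h were higher, against 0.177%, and Lce1i was lower, against 0.0796%. Between the p107 single mutant and pRb+/+ 1 was called, a lower S100a6, where 0.42% of all probe sets were called and 0.217% were called lower. Between the pRb single mutant and pRb+/+ limma's unmoderated test called 0 members, as over all probe sets (0%), while 13 of the 46 had an unadjusted p below 0.05, against 13.4% of all probe sets. The test over all 4 genotypes called 4 members, Sprr2d, Sprr2h, Lce1i and S100a6, where it called 1.28% of all probe sets.

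In all, 13 probe sets were called in at least 1 comparison of a pair of genotypes, with 21 calls, and 33 were called in none. The comparisons share arrays, so their values are set side by side and not counted as separate support. The calls rest on the unmoderated test, since limma's moderated test on the same scores called 0 members in every comparison. They also rest on the full set of arrays. Of the 12 calls between the double mutant and pRb+/+, 3 were made without either array of the pRb single mutant and 0 without any other single array. Between the double and the pRb single mutant, 1 of 5 was made without either pRb+/+ array and 0 without any other, while 0 of the 3 calls against the p107 single mutant were made without any single array. The call of S100a6 between the p107 single mutant and pRb+/+ was likewise made on the full set alone.

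**Figure D1:**
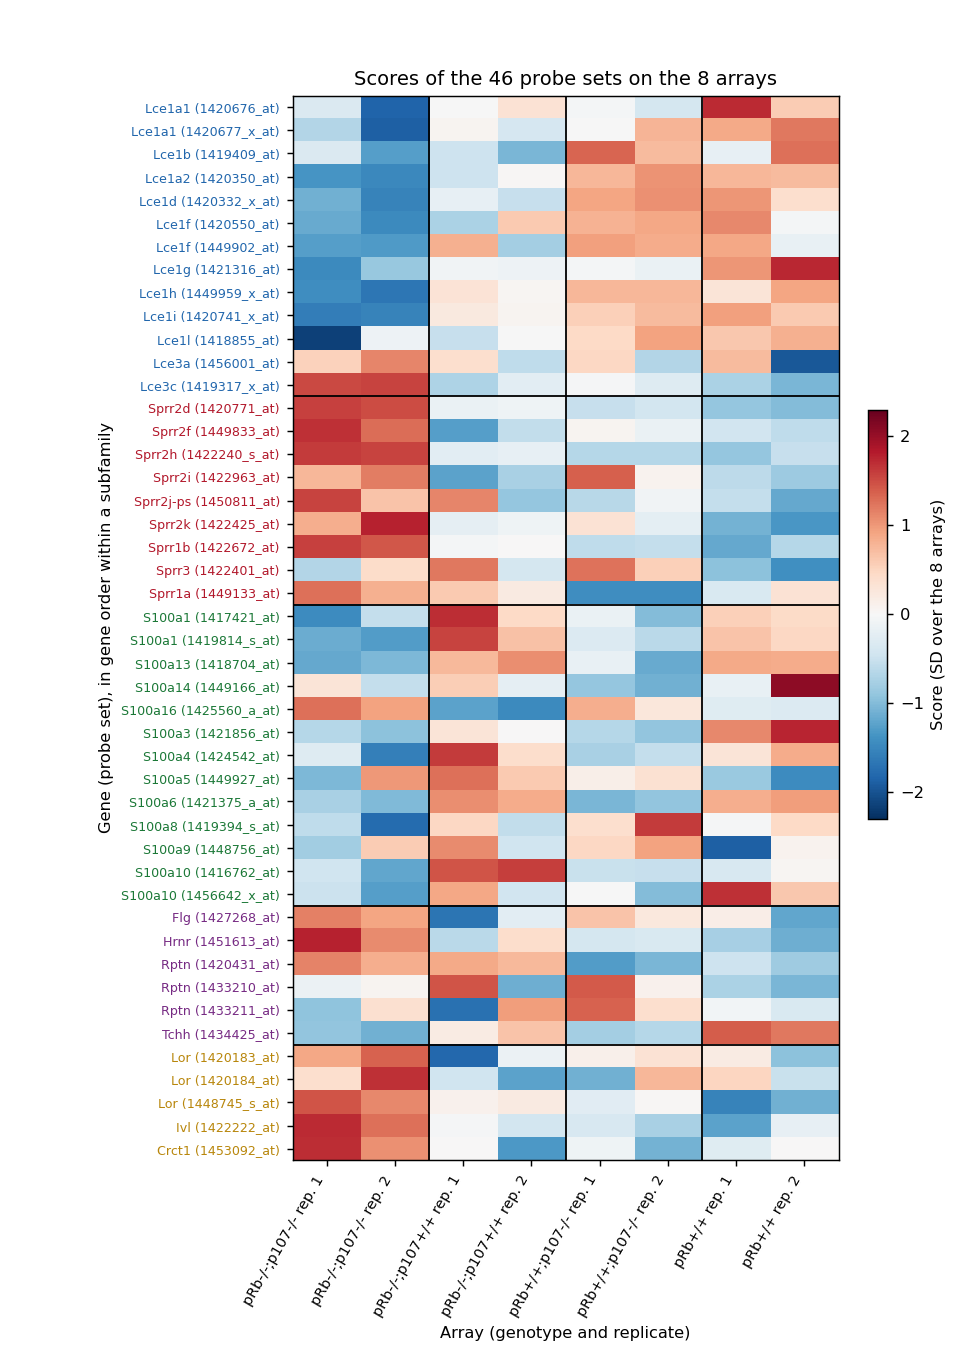
Scores of the 46 member probe sets (rows, by subfamily and in gene order) on the 8 arrays (columns, by genotype and replicate), coloured from low (blue) to high (red) in SD units over the 8 arrays. The Lce1 rows are blue on both double mutant arrays and the Sprr rows are mostly red there, while most S100a rows are blue on double and p107 single mutant arrays.

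The Sprr genes, whose proteins bridge loricrin and other envelope proteins, had a positive difference between the double mutant and pRb+/+ in 9 of 9 probe sets, with a median of 2.00 SD against 0.10 over all probe sets. Called were 3 of the 9. Fewer cells of a type and less RNA per cell cannot be told apart in whole skin, and this holds for every gene below.

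Sprr2d scored 1.57 and 1.50 on the double mutant arrays, -0.15 and -0.09 in the pRb single mutant, -0.54 and -0.43 in the p107 single mutant, and -0.88 and -0.99 in pRb+/+. The 4 genotypes did not overlap, and the double mutant stood farthest from the rest. The difference from pRb+/+ was 2.48 ± 0.06 (adjusted p = 0.00889), from the pRb single mutant 1.66 ± 0.06 (adjusted p = 0.0188) and from the p107 single mutant 2.02 ± 0.06 (adjusted p = 0.0263). Each single mutant also lay above pRb+/+, by 0.82 for pRb and 0.46 for p107, and neither difference passed (adjusted p = 0.0796 and 0.0853).

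Sprr2h, read by a probe set of the _s_at kind that may also read near copies, scored 1.61 and 1.55 in the double mutant, -0.25 and -0.18 in the pRb single mutant, -0.65 on both p107 single mutant arrays, and -0.89 and -0.53 in pRb+/+. Here the p107 single mutant lay within the range of pRb+/+. The double mutant was higher than pRb+/+ by 2.29 ± 0.13 (adjusted p = 0.0172), than the pRb single mutant by 1.79 ± 0.13 (adjusted p = 0.0320) and than the p107 single mutant by 2.23 ± 0.13 (adjusted p = 0.0457).

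Sprr1b scored 1.57 and 1.44 in the double mutant, -0.05 and 0.01 in the pRb single mutant, -0.58 and -0.55 in the p107 single mutant, and -1.18 and -0.66 in pRb+/+. It was called against pRb+/+ (2.42 ± 0.19, adjusted p = 0.0236). Against the pRb single mutant (1.52 ± 0.19, adjusted p = 0.0622) and the p107 single mutant (2.07 ± 0.19, adjusted p = 0.0707) it missed the threshold.

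The promoters of these 3 genes are shown because they carried the higher calls among Sprr genes. Each is the RefSeq window (GRCm38.p6) from 250 bases before to 50 bases after the annotated start, on the gene's strand, and capitals mark the AP-1 letters TGANTCA and the TATA box letters TATAAA. AP-1 is the Fos and Jun dimer, a factor known from epidermal differentiation genes.
Sprr2d: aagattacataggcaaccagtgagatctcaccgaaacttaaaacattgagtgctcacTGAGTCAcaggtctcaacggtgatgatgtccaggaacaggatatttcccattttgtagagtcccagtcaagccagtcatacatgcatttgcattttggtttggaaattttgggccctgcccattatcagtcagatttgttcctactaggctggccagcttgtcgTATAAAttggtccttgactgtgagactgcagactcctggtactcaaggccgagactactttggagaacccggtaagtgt
Sprr2h: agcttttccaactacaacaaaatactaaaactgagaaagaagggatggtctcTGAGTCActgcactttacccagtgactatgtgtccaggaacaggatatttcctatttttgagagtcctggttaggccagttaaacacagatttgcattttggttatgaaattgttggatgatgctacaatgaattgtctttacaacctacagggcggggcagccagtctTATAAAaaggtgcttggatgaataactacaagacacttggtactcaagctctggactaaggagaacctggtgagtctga
Sprr1b: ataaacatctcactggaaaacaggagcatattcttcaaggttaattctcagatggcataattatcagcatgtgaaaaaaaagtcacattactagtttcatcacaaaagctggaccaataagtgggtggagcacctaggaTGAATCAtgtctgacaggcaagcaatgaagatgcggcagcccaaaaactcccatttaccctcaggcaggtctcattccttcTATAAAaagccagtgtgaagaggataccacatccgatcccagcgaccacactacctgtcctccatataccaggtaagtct
The windows lie at chr3:92338890-92339189 (plus strand) for Sprr2d, chr3:92385435-92385734 (plus strand) for Sprr2h and chr3:92438730-92439029 (minus strand) for Sprr1b. The AP-1 letters begin 193, 198 and 111 bases before the start in Sprr2d, Sprr2h and Sprr1b, and the TATA box letters 29, 29 and 30 bases before it. The windows of Sprr2d and Sprr2h were 66.7% identical in a global alignment.

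The other Sprr probe sets missed the threshold in every comparison. Sprr2k scored 0.84 and 1.76 in the double mutant, -0.21 and -0.09 in the pRb single mutant, 0.34 and -0.23 in the p107 single mutant, and -1.08 and -1.34 in pRb+/+, and its difference of 2.51 ± 0.40 from pRb+/+ was the largest among Sprr genes (adjusted p = 0.0668). Sprr2f scored 1.69 and 1.28 in the double mutant, -1.27 and -0.57 in the pRb single mutant, 0.06 and -0.16 in the p107 single mutant, and -0.43 and -0.59 in pRb+/+. Unlike Sprr2d, it was lowest in the pRb single mutant, and its difference of 2.41 ± 0.30 from that genotype missed the threshold (adjusted p = 0.0623).

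Sprr2i scored 0.77 and 1.18 in the double mutant and -1.23 and -0.74 in the pRb single mutant, against 1.38 and 0.08 in the p107 single mutant and -0.60 and -0.83 in pRb+/+. All 4 p107-/- arrays lay above the other 4 for Sprr2i and Sprr2f. Sprr2j-ps, a pseudogene by its symbol, scored 1.56 and 0.65 in the double mutant, 1.13 and -0.89 in the pRb single mutant, -0.64 and -0.08 in the p107 single mutant, and -0.55 and -1.17 in pRb+/+, with duplicates far apart in the pRb single mutant.

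Sprr1a scored 1.26 and 0.82 in the double mutant, 0.59 and 0.21 in the pRb single mutant, -1.43 on both p107 single mutant arrays, and -0.36 and 0.33 in pRb+/+. Its lowest arrays were both of the p107 single mutant, and its difference of 2.47 ± 0.32 between the double and the p107 single mutant missed the threshold (adjusted p = 0.119). Sprr3, known from inner epithelia such as the oesophagus, scored -0.67 and 0.42 in the double mutant, 1.21 and -0.40 in the pRb single mutant, 1.25 and 0.55 in the p107 single mutant, and -0.94 and -1.42 in pRb+/+. Its double mutant arrays were not among the highest, and its lowest arrays were both of pRb+/+.

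**Figure D2:**
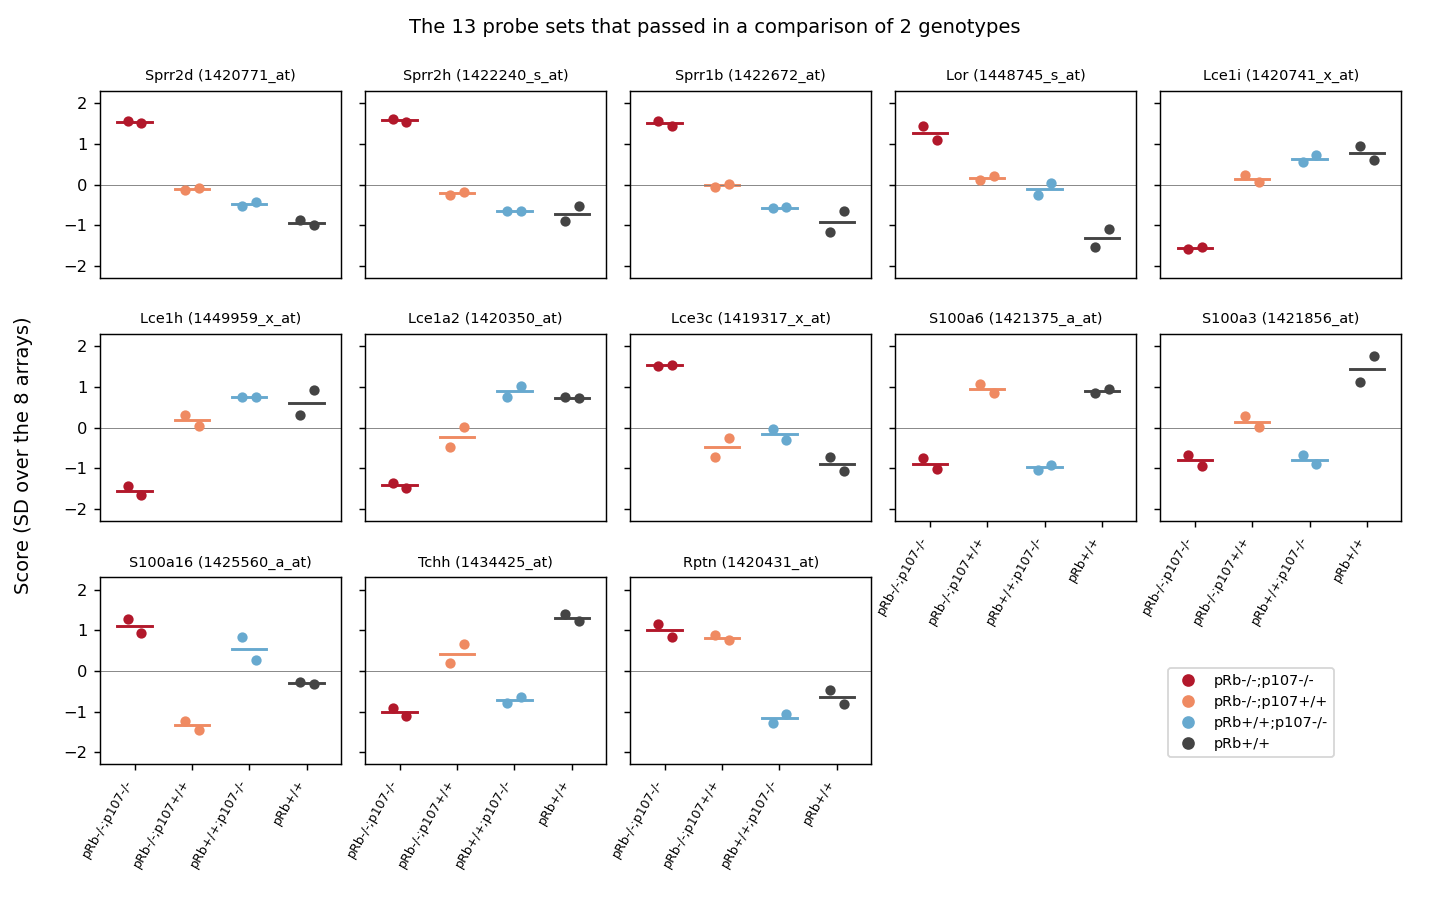
Score (SD units over the 8 arrays) of the 13 probe sets called between a pair of genotypes, with 1 point per array and a line at the mean of the 2 arrays of a genotype. Sprr2d, Sprr2h and Sprr1b stand highest and Lce1i, Lce1h and Lce1a2 lowest in the double mutant, while S100a6 is low on all 4 p107-/- arrays.

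The Lce genes, which code for late proteins of the cornified envelope, split by their own groups. All 11 Lce1 probe sets had a negative difference between the double mutant and pRb+/+ (median -2.16, from -2.55 to -1.34), and both Lce3 probe sets a positive one (1.43 and 2.42). Of the Lce1 probe sets 3 were called lower, and of the Lce3 probe sets 1 was called higher. The median over all 13 was -2.02.

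Lce1i scored -1.59 and -1.53 in the double mutant, 0.23 and 0.06 in the pRb single mutant, 0.55 and 0.72 in the p107 single mutant, and 0.94 and 0.61 in pRb+/+. It was lower in the double mutant than in pRb+/+ (a difference of -2.33 ± 0.14, adjusted p = 0.0181), the pRb single mutant (-1.71 ± 0.14, adjusted p = 0.0384) and the p107 single mutant (-2.20 ± 0.14, adjusted p = 0.0457). The pRb single mutant lay between the double mutant and both genotypes that kept pRb.

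Lce1h scored -1.43 and -1.66 in the double mutant, 0.32 and 0.04 in the pRb single mutant, 0.76 on both p107 single mutant arrays, and 0.30 and 0.92 in pRb+/+, a difference of -2.16 ± 0.25 from pRb+/+ (adjusted p = 0.0444). Lce1a2 scored -1.36 and -1.48 in the double mutant, -0.47 and 0.02 in the pRb single mutant, 0.76 and 1.04 in the p107 single mutant, and 0.76 and 0.73 in pRb+/+, a difference of -2.16 ± 0.20 from pRb+/+ (adjusted p = 0.0329). Both genes were lowest on the double mutant arrays and missed the threshold against either single mutant. The probe sets of Lce1i and Lce1h end in _x_at and may read near copies, whereas that of Lce1a2 does not.

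The promoters of Lce1i and Lce1h are shown against those of the Sprr genes, in the same kind of window and with the same 2 sets of letters searched on both strands.
Lce1i: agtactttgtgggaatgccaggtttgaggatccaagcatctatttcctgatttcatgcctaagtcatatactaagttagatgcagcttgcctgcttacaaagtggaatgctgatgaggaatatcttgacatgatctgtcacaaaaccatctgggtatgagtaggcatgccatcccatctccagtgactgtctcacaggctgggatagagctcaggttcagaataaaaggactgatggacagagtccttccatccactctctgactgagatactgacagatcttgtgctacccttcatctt
Lce1h: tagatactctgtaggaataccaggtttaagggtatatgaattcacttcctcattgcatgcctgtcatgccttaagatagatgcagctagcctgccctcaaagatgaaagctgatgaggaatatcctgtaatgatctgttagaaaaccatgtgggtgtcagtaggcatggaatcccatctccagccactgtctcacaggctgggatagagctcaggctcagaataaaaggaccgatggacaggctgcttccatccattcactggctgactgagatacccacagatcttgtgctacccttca
The windows lie at chr3:92778850-92779149 (minus strand) for Lce1i and chr3:92765016-92765315 (minus strand) for Lce1h, and neither holds the AP-1 or the TATA box letters, so nothing is in capitals. Only exact letters were searched. Both windows hold AATAAA shortly before the start, which differs from the TATA box letters in its first base and was not counted. They were 82.3% identical in a global alignment. Among the 10 Lce genes with a window the median identity between genes was 52.7%, and the highest, between Lce1g and Lce1h, was 86.3%.

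The 8 other Lce1 probe sets were not called. Lce1g scored -1.47 and -0.88 in the double mutant, -0.08 and -0.12 in the pRb single mutant, -0.04 and -0.16 in the p107 single mutant, and 1.02 and 1.73 in pRb+/+. Its single mutants lay together between the double mutant and pRb+/+, and its difference of -2.55 ± 0.33 from pRb+/+ had an adjusted p of 0.0508. Lce1d scored -1.10 and -1.53 in the double mutant, -0.20 and -0.54 in the pRb single mutant, 0.90 and 1.05 in the p107 single mutant, and 1.02 and 0.39 in pRb+/+ (-2.02 ± 0.30, adjusted p = 0.0605).

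The 2 probe sets of Lce1f ranged from -1.46 to -1.16 on the double mutant arrays and from -0.17 to 1.10 in pRb+/+, and agreed on the direction for loss of both (-1.83 ± 0.63 and -1.65 ± 0.68). Those of Lce1a1 ranged from -1.88 to -0.33 in the double mutant and from 0.58 to 1.71 in pRb+/+ (-2.23 ± 0.69 and -2.32 ± 0.55). Lce1l had 1 double mutant array at -2.14 and the other at -0.11, and its difference from pRb+/+ was -1.84 ± 0.76. Lce1b scored -0.34 and -1.27 in the double mutant, -0.48 and -1.05 in the pRb single mutant, 1.33 and 0.73 in the p107 single mutant, and -0.19 and 1.26 in pRb+/+. In Lce1b the double and the pRb single mutant overlapped (-0.04 ± 0.68), unlike Lce1i.

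Lce3c scored 1.52 and 1.55 in the double mutant, -0.71 and -0.25 in the pRb single mutant, -0.03 and -0.29 in the p107 single mutant, and -0.72 and -1.06 in pRb+/+. It was higher in the double mutant than in pRb+/+ by 2.42 ± 0.22 (adjusted p = 0.0319), and against the pRb single mutant the difference of 2.01 ± 0.22 missed the threshold (adjusted p = 0.0538). Its probe set ends in _x_at. In human skin LCE3 genes are known to be induced in barrier repair and psoriasis. Lce3a scored 0.52 and 1.12 in the double mutant, 0.38 and -0.59 in the pRb single mutant, 0.47 and -0.68 in the p107 single mutant, and 0.73 and -1.95 in pRb+/+, where the duplicates spread across nearly the whole range, so its difference of 1.43 ± 1.10 was not called (adjusted p = 0.514).

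Promoter letters were read for the 33 of 38 genes with a RefSeq window (37 windows). The AP-1 letters, whose search reads the same on both strands, stood in 7 of the 8 Sprr genes with a window, all but Sprr3, in 0 of 10 Lce genes, in 1 of 9 S100a genes (S100a16), in Flg and Rptn of the 4 fused S100 type genes, and in both Lor and Ivl. Over all 32851 promoter windows of the table, 7.81% held them. The TATA box letters stood in 8 of 8 Sprr, 1 of 10 Lce, 4 of 9 S100a and 3 of 4 fused S100 type genes and in Lor and Ivl, and in 13.6% of all windows. In S100a9 they stood at the start and not before it, and in S100a3 they began 52 bases before it. The Ets letters CAGGAA stood in 5 of 8 Sprr, 6 of 10 Lce and 5 of 9 S100a genes and in 30.6% of all windows. The letters GGGTG, of the kind Klf4 binds, stood in 4 of 8, 3 of 10 and 7 of 9, and in 57.5% of all windows. In Sprr1a the letters GGGTG that begin 119 bases before the start overlap the AP-1 letters that begin 116 bases before it. A gene counted where any of its windows held the letters, whereas the shares over all are of single windows. These are exact matches of the letters given, so near variants of them were not counted, and they do not show binding. Neighbours of a family share sequence, so the genes are not independent cases.

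**Figure D3:**
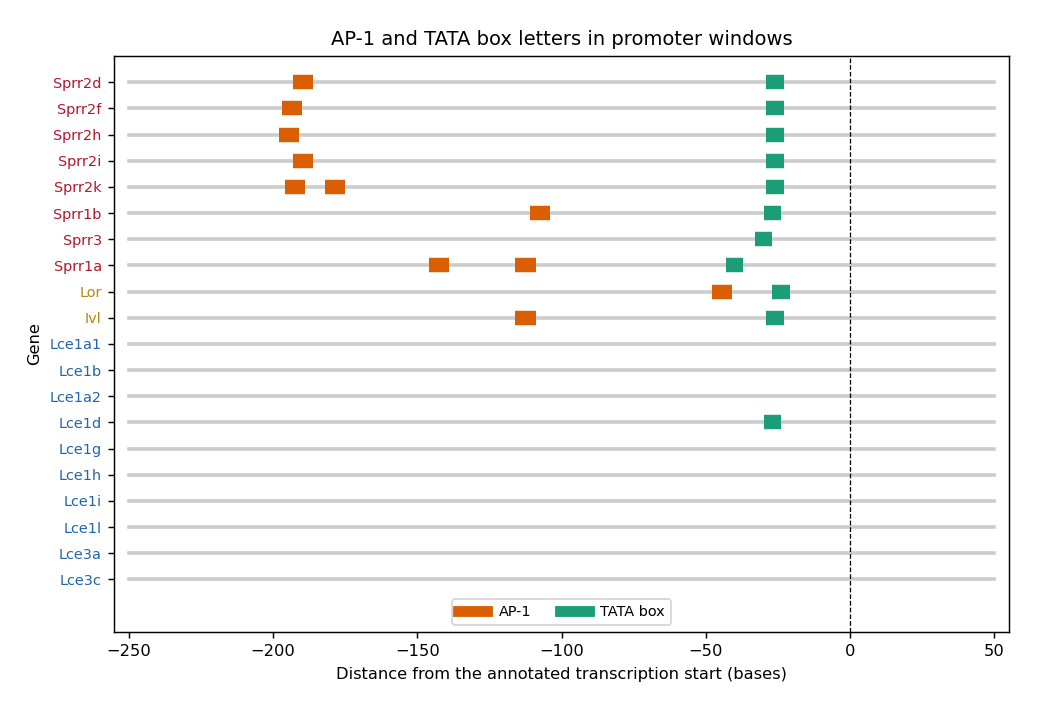
Positions of the AP-1 letters (orange) and the TATA box letters (green), in bases from the annotated start, in the promoter windows of the Sprr genes, Lor, Ivl and the Lce genes (1 grey line per gene). The AP-1 letters begin from 198 to 182 bases before the start in Sprr2 genes, nearer the start in Sprr1 genes, Lor and Ivl, and on none of the Lce lines.

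Lor encodes loricrin and had 3 probe sets. The probe set 1448745_s_at scored 1.45 and 1.10 in the double mutant, 0.11 and 0.21 in the pRb single mutant, -0.27 and 0.03 in the p107 single mutant, and -1.53 and -1.10 in pRb+/+. The single mutants lay between the double mutant and pRb+/+ without overlap, and the difference between the double mutant and pRb+/+ was 2.59 ± 0.23 (adjusted p = 0.0285). The other probe sets, 1420183_at and 1420184_at, gave 1.50 ± 0.74 and 1.03 ± 0.92 (adjusted p = 0.336 and 0.572), with duplicates of the pRb single mutant at -1.81 and -0.14 on the first. The 3 profiles correlated at r = 0.31 to 0.62 over the 8 arrays, so the call holds for 1 of 3 readings of the gene.

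Ivl, which encodes involucrin, scored 1.72 and 1.27 in the double mutant, -0.03 and -0.43 in the pRb single mutant, -0.37 and -0.75 in the p107 single mutant, and -1.23 and -0.19 in pRb+/+. Both double mutant arrays were the highest of the 8, and the difference of 2.20 ± 0.45 from pRb+/+ was not called (adjusted p = 0.0967). Crct1 scored 1.70 and 1.05 in the double mutant, 0.01 and -1.32 in the pRb single mutant, -0.10 and -1.08 in the p107 single mutant, and -0.27 and 0.00 in pRb+/+ (1.51 ± 0.64, adjusted p = 0.278). Again both double mutant arrays were the highest, and the other genotypes overlapped.

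Among the fused S100 type genes, Flg, for filaggrin, scored 1.15 and 0.91 in the double mutant, -1.68 and -0.24 in the pRb single mutant, 0.66 and 0.25 in the p107 single mutant, and 0.15 and -1.20 in pRb+/+. The 4 p107-/- arrays lay above the other 4, and no difference was called (1.56 ± 0.72 from pRb+/+, adjusted p = 0.311). Hrnr, for hornerin, a filaggrin-like protein, scored 1.77 and 1.08 in the double mutant, -0.63 and 0.41 in the pRb single mutant, -0.40 and -0.35 in the p107 single mutant, and -0.76 and -1.12 in pRb+/+ (2.37 ± 0.46, adjusted p = 0.0905).

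Rptn, for repetin, an envelope precursor, was read by 3 probe sets that did not move together. On 1420431_at it scored 1.15 and 0.84 in the double mutant, 0.88 and 0.75 in the pRb single mutant, -1.28 and -1.05 in the p107 single mutant, and -0.48 and -0.81 in pRb+/+. All 4 pRb-/- arrays stood above the other 4, and the double mutant was higher than pRb+/+ by 1.64 ± 0.19 (adjusted p = 0.0430), with a difference of 0.18 ± 0.19 from the pRb single mutant. The probe sets 1433210_at and 1433211_at gave 0.85 ± 1.03 and -0.07 ± 1.11 for the same comparison, and correlations between the 3 profiles ran from -0.49 to -0.05, so this call also holds for 1 of 3 readings.

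Tchh, for trichohyalin, a protein of the inner root sheath and medulla of the hair follicle, went the other way. It scored -0.91 and -1.11 in the double mutant, 0.19 and 0.65 in the pRb single mutant, -0.79 and -0.65 in the p107 single mutant, and 1.40 and 1.22 in pRb+/+. The double mutant was lower than pRb+/+ (a difference of -2.32 ± 0.20, adjusted p = 0.0271), and the 4 p107-/- arrays lay below the other 4. Inner root sheath markers moved with it: 5 of the 5 measured were called lower in the double mutant than in pRb+/+, with list medians of -1.11 and -1.33 in the double mutant, 0.51 and 0.66 in the pRb single mutant, -0.60 and -0.56 in the p107 single mutant, and 0.90 and 1.42 in pRb+/+. Their part in the result for Tchh was not tested.

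The S100a genes had 2 calls between the double mutant and pRb+/+, both lower, and 10 of 13 differences were negative (median -1.50, or -0.88 without replicate 2 of the double mutant). Between the double and the pRb single mutant 12 of 13 were negative (median -1.13, or -1.77 without replicate 2 of the pRb single mutant, against -0.10 over all probe sets), and after p107 loss alone 9 of 13 (median -1.07 against 0.35 over all). After pRb loss alone 8 of 13 were positive, with a median of 0.06. Beta-actin controls and the median of the adipocyte markers also stood lower in the double than in the pRb single mutant. Of the adipocyte markers 3 had a negative difference and 1 a positive one. The positive one was Fabp4 (1.69 ± 0.50), whose 3 other probe sets had the opposite sign. The medians of the 4 adipocyte markers measured were -1.27 and -1.16 in the double mutant, 1.11 and 0.54 in the pRb single mutant, 0.35 and 0.24 in the p107 single mutant, and -0.47 and 0.29 in pRb+/+. Between the double and the pRb single mutant 1 marker was called lower in each of 3 lists: Adipoq of the 4 adipocyte markers, Myl1 of 6 of skeletal muscle, and Csf1r of 7 of macrophages. In that comparison 4 muscle markers had a negative and 2 a positive difference. The macrophage list ran against Csf1r, with 4 positive and 3 negative differences and a median difference of 1.28. Medians of the muscle list were 0.28 and -0.04 in the double mutant, 1.04 and 0.56 in the pRb single mutant, -0.07 and -0.04 in the p107 single mutant, and -1.18 and 0.08 in pRb+/+, while those of the macrophage list ran from -0.59 to 0.43 in pRb+/+, with every other array between these values. Their part in the S100a results was not tested.

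S100a6, or calcyclin, scored -0.74 and -1.02 in the double mutant, 1.06 and 0.85 in the pRb single mutant, -1.05 and -0.91 in the p107 single mutant, and 0.84 and 0.96 in pRb+/+. The p107-/- arrays formed 1 group and the arrays with p107 the other, whatever the pRb genotype. The double mutant differed from pRb+/+ by -1.78 ± 0.14 (adjusted p = 0.0239) and from the pRb single mutant by -1.84 ± 0.14 (adjusted p = 0.0331), and the p107 single mutant differed from pRb+/+ by -1.88 ± 0.14 (adjusted p = 0.0482). The remaining differences were 0.10 ± 0.14 between the double and the p107 single mutant (adjusted p = 0.861) and 0.06 ± 0.14 between the pRb single mutant and pRb+/+ (adjusted p = 0.906).

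The S100a6 window is shown because the gene was called in 3 comparisons. It lies at chr3:90612644-90612943 (plus strand), in the same build and frame as the others.
S100a6: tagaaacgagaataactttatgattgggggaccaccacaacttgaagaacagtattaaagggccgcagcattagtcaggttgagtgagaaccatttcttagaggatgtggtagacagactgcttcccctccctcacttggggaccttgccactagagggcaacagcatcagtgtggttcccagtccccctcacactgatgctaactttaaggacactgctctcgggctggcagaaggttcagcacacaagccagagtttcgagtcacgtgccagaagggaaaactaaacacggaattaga
It holds neither set of letters and has nothing in capitals. Whether the letters have a part in the direction of the differences was not tested. Promoter windows of the 9 S100a genes had a median identity of 43.2%, against 48.8% among the 8 Sprr genes.

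Fibroblast markers, listed because S100a6 and S100a4 are also made in dermis, had medians of -0.67 and -1.56 in the double mutant, 0.50 and 0.49 in the pRb single mutant, 1.12 and 0.64 in the p107 single mutant, and -0.08 and -0.21 in pRb+/+. The list was low in the double mutant and high in the p107 single mutant, and S100a6 was low in both. Called were 0 of the 6 fibroblast genes in each comparison. The part of these markers in the S100a6 and S100a4 results was not tested.

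S100a3, a protein of the hair cuticle, scored -0.66 and -0.94 in the double mutant, 0.29 and 0.01 in the pRb single mutant, -0.66 and -0.90 in the p107 single mutant, and 1.11 and 1.76 in pRb+/+. The double and the p107 single mutant coincided, and the double mutant was lower than pRb+/+ (a difference of -2.24 ± 0.28, adjusted p = 0.0481), while p107 loss alone gave -2.22 ± 0.28 (adjusted p = 0.0784). Hair shaft markers ran beside it, with 6 of 9 measured called lower for loss of both and list medians of -1.02 and -1.11 in the double mutant, 0.37 and 0.29 in the pRb single mutant, -0.58 and -0.59 in the p107 single mutant, and 1.33 and 1.35 in pRb+/+. Their part in the S100a3 result was not tested.

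S100a16 ran against its family between the double and the pRb single mutant, where it was the only 1 of 13 S100a probe sets with a positive difference. It scored 1.27 and 0.92 in the double mutant, -1.22 and -1.46 in the pRb single mutant, 0.83 and 0.26 in the p107 single mutant, and -0.27 and -0.32 in pRb+/+. All 4 p107-/- arrays lay above the other 4, and the double mutant was higher than the pRb single mutant by 2.43 ± 0.25 (adjusted p = 0.0487). From pRb+/+ it differed by 1.39 ± 0.25, which missed the threshold (adjusted p = 0.0815). S100a5 and S100a9 also had positive differences between the double mutant and pRb+/+, and in the p107 single mutant 4 of 13 lay above pRb+/+.

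None of the other S100a probe sets was called. S100a1 was read by 2 probe sets that followed each other (r = 0.94 over the 8 arrays): 1419814_s_at scored -1.15 and -1.28 in the double mutant, 1.56 and 0.67 in the pRb single mutant, -0.32 and -0.62 in the p107 single mutant, and 0.66 and 0.48 in pRb+/+. S100a13, known for its part in the release of growth factors without a signal peptide, scored -1.18 and -1.04 in the double mutant, 0.74 and 1.07 in the pRb single mutant, -0.17 and -1.15 in the p107 single mutant, and 0.87 and 0.86 in pRb+/+. In both genes the 4 p107-/- arrays lay below the other 4, as in S100a6, yet differences from the pRb single mutant of -2.33 ± 0.34 and -2.01 ± 0.37 missed the threshold (adjusted p = 0.0782 and 0.108).

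S100a10, the partner of annexin A2, was read by 2 probe sets that agreed less (r = 0.33). On 1416762_at it scored -0.46 and -1.20 in the double mutant, 1.46 and 1.59 in the pRb single mutant, -0.52 and -0.54 in the p107 single mutant, and -0.37 and 0.05 in pRb+/+, so the pRb single mutant stood above the rest (-2.35 ± 0.31 for the double mutant against it, adjusted p = 0.0665). On 1456642_x_at the highest array was 1 of pRb+/+, at 1.67. S100a4, known from motile and mesenchymal cells, scored -0.30 and -1.57 in the double mutant, 1.61 and 0.40 in the pRb single mutant, -0.75 and -0.54 in the p107 single mutant, and 0.29 and 0.86 in pRb+/+, with the arrays split by p107 but duplicates wide apart (-1.51 ± 0.66 for loss of both, adjusted p = 0.289).

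S100a8 and S100a9 encode the partners that form calprotectin, which neutrophils and stressed keratinocytes make. S100a8 scored -0.58 and -1.78 in the double mutant, 0.47 and -0.56 in the pRb single mutant, 0.39 and 1.62 in the p107 single mutant, and -0.02 and 0.46 in pRb+/+. S100a9 scored -0.81 and 0.58 in the double mutant, 1.08 and -0.45 in the pRb single mutant, 0.48 and 0.93 in the p107 single mutant, and -1.88 and 0.07 in pRb+/+. Duplicates lay far apart in most genotypes, and for loss of both the partners differed in sign (-1.40 ± 0.73 and 0.79 ± 1.02, neither called).

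The neutrophil and monocyte markers had 0 of 11 measured called in each comparison, with list medians of -0.25 and 0.32 in the double mutant, -0.59 and -0.29 in the pRb single mutant, 0.78 and 0.88 in the p107 single mutant, and -0.18 and -0.89 in pRb+/+. S100a5 ranged from -1.03 to 0.99 in the double mutant and from -1.45 to -0.85 in pRb+/+ (1.13 ± 0.79). S100a14, an epithelial member, had duplicates of 2.05 and -0.17 in pRb+/+ (-1.06 ± 0.89).

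Set side by side, the subfamilies kept different orders of genotypes. The median score of the Sprr probe sets was 1.56 and 1.28 on the double mutant arrays, -0.15 and -0.18 in the pRb single mutant, -0.54 and -0.23 in the p107 single mutant, and -0.88 and -0.83 in pRb+/+. For Lce1 it was -1.27 and -1.48 in the double mutant, -0.08 and -0.02 in the pRb single mutant, 0.76 and 0.79 in the p107 single mutant, and 0.89 and 0.73 in pRb+/+. For S100a it was -0.66 and -1.02 in the double mutant, 1.06 and 0.40 in the pRb single mutant, -0.17 and -0.62 in the p107 single mutant, and 0.29 and 0.48 in pRb+/+. The double mutant stood at an end in all 3. The pRb single mutant lay next to it for Lce1, whereas for S100a the pRb single mutant overlapped pRb+/+ and the p107 single mutant lay next to the double mutant.

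Loss of both genes set the medians of Sprr and Lce 4.02 SD apart, and those of Sprr and S100a 3.50 SD apart. Of the comparisons of single losses, p107 loss in pRb-/- skin gave 1.52 for Sprr, -1.13 for Lce and -1.13 for S100a, where all probe sets had -0.10. pRb loss in p107-/- skin gave 1.53 for Sprr, -1.84 for Lce and -0.30 for S100a, where all probe sets had -0.33. With quantile normalization that S100a median was 0.059, and without 1 array it ran from -0.31 to 0.01. p107 loss in pRb+/+ skin gave 0.46 for Sprr (0.063 with quantile normalization and 0.15 with array medians subtracted), 0.16 for Lce (-0.16 with array medians subtracted) and -1.07 for S100a, against 0.35 over all. pRb loss with p107 kept gave 0.82 for Sprr (0.53 without replicate 1 of the pRb single mutant and 0.50 with probe sets of several symbols), -0.97 for Lce and 0.06 for S100a (from -0.05 to 0.35 without 1 array), against 0.12 over all. These medians describe the lists, and no test was made of a subfamily as such.

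**Figure D4:**
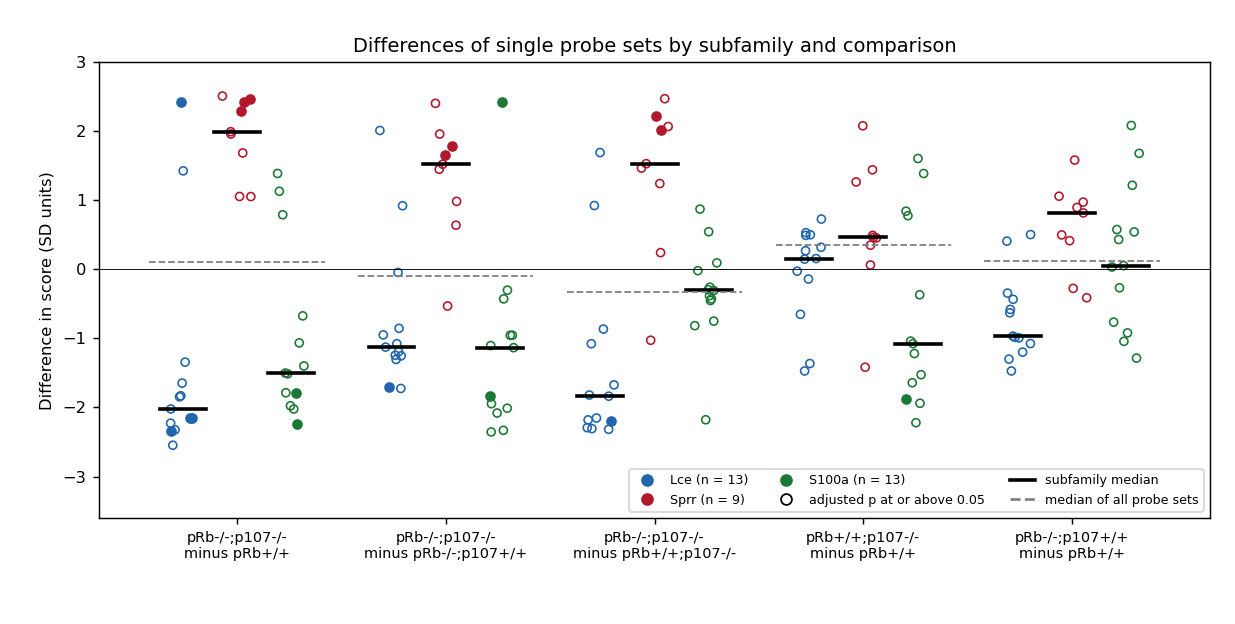
Difference in score (SD units) of each Lce, Sprr and S100a probe set in 5 comparisons of genotypes, with filled points for an adjusted p below 0.05, black bars at the subfamily median and grey dashes at the median of all probe sets. The Sprr bar is above and the Lce bar below the dashes in the 3 comparisons of the double mutant, and the S100a bar is farthest below them where p107 was lost.

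The order of single arrays was also counted, with no model. Both double mutant arrays were the highest 2 of 8 for 14 members (6.96% of all probe sets) and the lowest 2 for 11 (11.4% of all), 25 of 46 in all against 18.4%. The 14 comprised 6 Sprr probe sets, 2 of Lor, Ivl, Crct1, Flg, Hrnr, Lce3c and S100a16, and the 11 comprised 8 Lce1 probe sets, S100a8, 1 of S100a1 and Tchh. The 4 p107-/- arrays lay above the other 4 for 4 members (7.51% of all) and below them for 9 (8.23% of all), 13 in all against 15.7%, and 7 of the 9 were S100a probe sets. The 4 pRb-/- arrays lay above the other 4 for 5 members (1.97% of all), Sprr2d, Sprr2h, Sprr1b, Rptn and Lor, and below them for 5 (2.24% of all), all of them Lce1 probe sets, 10 in all against 4.2%.

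Profiles over the 8 arrays were alike within Lce1 (mean pairwise r = 0.72) and within Sprr2 (0.70), less so within all Sprr (0.54) and S100a (0.24), and near 0 between all probe sets (0.02). Between families the mean r was -0.62 for Sprr with Lce1, -0.60 for Lce1 with Lce3, -0.28 for Sprr with S100a and 0.23 for Lce1 with S100a. These are descriptions over 8 arrays in 4 groups, and related probe sets may read the same transcripts in part.

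Along chromosome 3 the members lie in runs by family: 10 S100a genes, Lor, 9 Sprr genes, Ivl, 11 Lce genes, Crct1, the 4 fused S100 type genes, and S100a10 apart from its family. For loss of both genes the sign of the difference changed along this order. It was negative for 8 of the 11 probe sets of the first run, positive for every probe set from Lor through the Sprr genes to Ivl, negative for every Lce1 probe set and positive again from Lce3a through Crct1 and Flg to Hrnr. Lor, Ivl and Crct1 thus carried the sign of Sprr. Among the members Ivl lies next to the Lce1 genes, which had the opposite sign, and Crct1 next to Lce3c, which shared its sign.

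**Figure D5:**
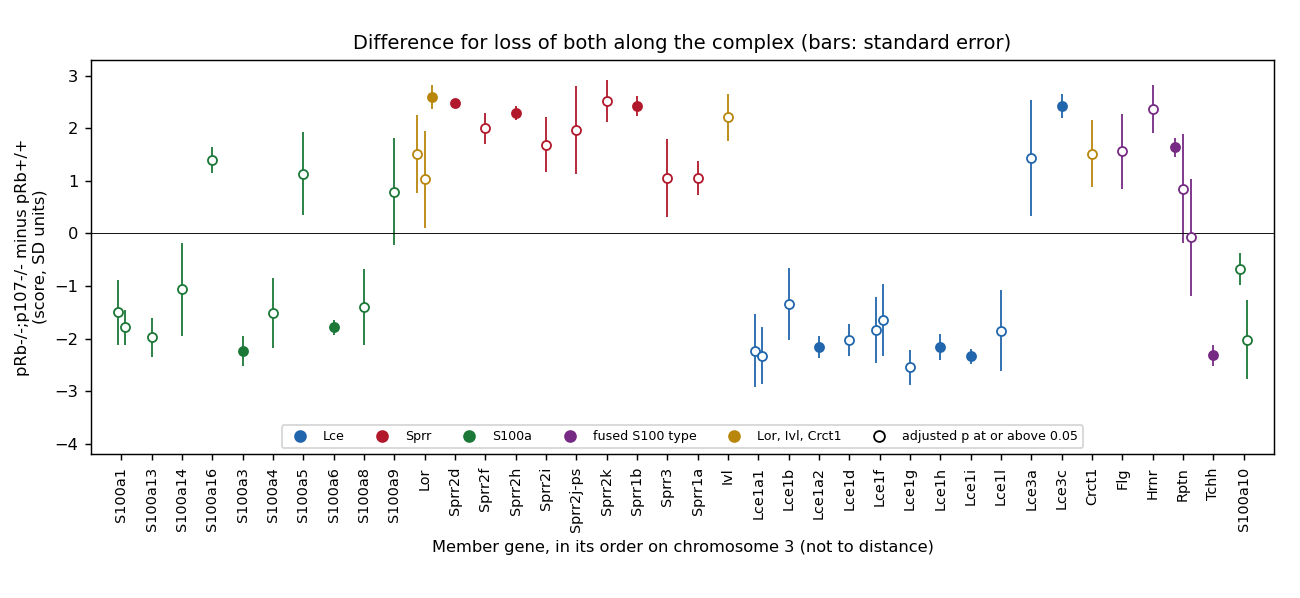
Difference in score (SD units, with standard errors) between the double mutant and pRb+/+ for each member probe set, placed by the order of its gene on chromosome 3 and coloured by subfamily, with filled points for an adjusted p below 0.05. The positive run of Lor, Sprr and Ivl is followed by the negative run of Lce1, and the sign is positive again from Lce3a to Hrnr.

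Whether p107 loss acted differently with and without pRb was tested as an interaction, which called 0 members and 0% of all probe sets, with 13 of the 46 at an unadjusted p below 0.05, against 13.1% of all probe sets. The smallest adjusted p among members was that of Sprr2d, 0.0794, for an interaction of 1.20 ± 0.09. Lce1i had -1.57 ± 0.20 (adjusted p = 0.130) and S100a6 0.04 ± 0.20 (adjusted p = 0.953). A miss here does not show that the effects were equal.

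Of 39 other genes of the cornification pathway listed outside the complex, 33 were measured, and between the double mutant and pRb+/+ 25 had a positive and 8 a negative difference, with a median of 1.55 against 0.14 over all genes. Called higher were 4, and 0 were called lower. Krtdap, a secreted keratinocyte differentiation protein, scored 1.66 and 1.44 in the double mutant, -0.65 and -0.36 in the pRb single mutant, 0.01 and -0.38 in the p107 single mutant, and -0.96 and -0.75 in pRb+/+ (2.40 ± 0.20, adjusted p = 0.0267). Asprv1, a protease that cuts profilaggrin, gave 2.50 ± 0.15 (adjusted p = 0.0174), Dsc1, a desmosomal cadherin of upper layers, 2.62 ± 0.17 (adjusted p = 0.0188), and Ovol1, a transcription factor of epidermal differentiation, 2.15 ± 0.15 (adjusted p = 0.0207).

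Tgm1, the transglutaminase that joins envelope proteins, scored 1.75 and 0.97 in the double mutant, -0.27 and -0.21 in the pRb single mutant, 0.01 and 0.06 in the p107 single mutant, and -1.48 and -0.84 in pRb+/+, with both single mutants between the double mutant and pRb+/+, and missed the threshold (2.52 ± 0.36, adjusted p = 0.0565). Casp14, which breaks filaggrin down, likewise missed it (2.44 ± 0.33, adjusted p = 0.0538). As near to the threshold on the negative side were Cst6, an inhibitor of cysteine proteases (-2.12 ± 0.29, adjusted p = 0.0550), and St14, which encodes the protease matriptase (-1.86 ± 0.26, adjusted p = 0.0563). The keratins of the suprabasal layers, Krt1, Krt10 and Krt2, all had positive differences, from 1.25 to 1.91, and none was called. Between the double and the pRb single mutant Krtdap and Asprv1 were called higher, and between the double and the p107 single mutant Ovol1 was.

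The 7 measured AP-1 subunits, looked at because of the letters in Sprr promoters, had 0 calls in each of the 5 comparisons. Their list medians were 0.68 and 0.59 in the double mutant, 0.53 and 0.38 in the pRb single mutant, -0.99 and -0.88 in the p107 single mutant, and 0.25 and 0.16 in pRb+/+. The p107 single mutant was lowest in this list. Fosl1 scored 2.06 and 0.89 in the double mutant against -0.39 and -0.58 in pRb+/+ (1.96 ± 0.52, adjusted p = 0.145). For the same comparison Jun gave 1.46 ± 0.68, Fos 1.20 ± 0.56, Fosl2 0.29 ± 0.87 and Junb 0.10 ± 0.28. Jund gave -1.33 ± 0.70 and Fosb -0.45 ± 1.13, so 5 subunits had a positive and 2 a negative difference. Between the double and the p107 single mutant 7 of 7 were positive (median 1.44 against -0.34 over all genes). Between the double and the pRb single mutant 3 were positive and 4 negative. The part of AP-1 in the Sprr results was not tested.

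Basal keratinocyte markers had 0 of 7 called in each comparison, and for loss of both their median difference was 0.83. Of the stress keratins, Krt16 was called higher in the double mutant than in pRb+/+ (2.53 ± 0.26, adjusted p = 0.0377), as Sprr1b and Lce3c were, and Krt6b lower (-0.94 ± 0.10, adjusted p = 0.0379), while Krt6a and Krt17 were not called (-0.59 ± 0.95 and -1.91 ± 0.84). The 2 other Krt6a probe sets both had a positive difference. The part of these markers in the Sprr, Lce and S100a results was not tested.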

How the data were processed

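The members and gene lists were chosen with earlier results of these data known. RMA, which corrects background, normalizes arrays and summarizes probes, was applied before deposit per the submitters' processing notes, with no version given. Each probe set's deposited score averages 0 across the 8 arrays with an SD of 1, as the values themselves show. No source records that step, nor whether it used log or linear values. Signal over background cannot be read from scores.

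Sample titles gave the genotype and the replicate number. Probe sets were named by the platform annotation: 20380 of 22626 had 1 symbol, 691 several and 1555 none, and 64 control probe sets were left out of the tests. Probe sets named by several symbols, 3 of which held a member symbol, were not members. For other gene lists 1 probe set stood for a gene, chosen by its name.

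In limma 3.58.1 (R 4.3.3) each genotype had its own mean in 1 model of the 8 arrays, with 4 degrees of freedom left for the spread. Its unmoderated statistic was used because it is the same on scores as on unstandardized values. The script was tested on simulated data. The alternatives were the moderated test, quantile normalization, array medians subtracted, the replicate number as a block, each array left out, and other choices of probe sets. Same-numbered arrays deviated with r from -0.13 to 0.11 over the 6 pairs of genotypes, so the numbers were not taken to pair the arrays.

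Genes named with values were all probe sets of Flg, Lor, Ivl, Rptn, Hrnr, Tchh and Crct1, each called probe set, and the 3 most positive and 3 most negative of Lce, Sprr and S100a in the comparisons of the double mutant with pRb+/+ and with the pRb single mutant. Other members named were added to account for all of them. Promoter sequences were those of RefSeq (GRCm38.p6). Python 3.11.15 with pandas 2.3.3 and Biopython 1.88 computed the rest.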

Additional observations from a re-analysis of the deposited data

Results flagged for a closer look

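Outside the members, 2 Sprr probe sets that carry several gene symbols, all of them Sprr, stood above pRb+/+ in the double mutant. They were set aside because no single gene can be named from them. Probe set 1439016_x_at, with 3 symbols, scored 1.18 and 1.14 in the double mutant, -1.16 and -1.13 in the pRb single mutant, 0.51 and 0.74 in the p107 single mutant, and -0.75 and -0.54 in pRb+/+, a difference of 1.81 ± 0.11 between the double mutant and pRb+/+ (adjusted p = 0.0181). Probe set 1450618_a_at, with 2 symbols, scored 1.06 and 0.97 in the double mutant, -1.002 and -0.96 in the pRb single mutant, 0.93 and 0.75 in the p107 single mutant, and -0.72 and -1.03 in pRb+/+, a difference of 1.90 ± 0.13 (adjusted p = 0.0204). Unlike Sprr2d, both stood high on all 4 p107-/- arrays, and 1450618_a_at was also called higher in the p107 single mutant than in pRb+/+ (1.72 ± 0.13, adjusted p = 0.0491). The remaining probe set of several symbols, 1460351_at, carries S100a11, S100a11-ps and Gm12854. Its difference of 1.98 ± 0.76 between the double mutant and pRb+/+ was not called (adjusted p = 0.245). The sign was opposite to that of the S100a median, -1.50.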

How the results depend on the processing

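The number of members called moved more than their direction. With the moderated test 0 members were called in each comparison. With quantile normalization 7 were called for loss of both, and with array medians subtracted 0 over all 4 genotypes, 0 for p107 loss in pRb+/+ skin, 1 for p107 loss in pRb-/- skin and 0 for pRb loss in p107-/- skin. With the replicate number as a block, for arrays that the numbers did not pair, 1 was called for loss of both and 0 over all 4 genotypes and in every other comparison. Without probe sets ending in _x_at or _s_at, 2 were called over all 4 genotypes, 3 for p107 loss in pRb-/- skin, 1 for pRb loss in p107-/- skin and 7 for loss of both, and with those of several symbols 2 for p107 loss in pRb+/+ skin. Leaving out each array in turn left 0 to 3 calls for loss of both, 0 to 1 for p107 loss in pRb-/- skin and 0 in the others. Of the 21 called differences, 13 remained called with quantile normalization, 9 with array medians subtracted, 1 with the block and 0 to 3 without an array, and 0 reversed in any of these. Without the _x_at and _s_at probe sets, 16 members had both double mutant arrays at an end and 6 had pRb-/- arrays apart. That setting removes 10 members, so its counts are over fewer probe sets and are lower for that reason. The cause of the changes in the other settings was not tested.

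Subfamily medians moved by more than the spread of duplicates in 33 of 135 cases. With array medians subtracted, Lce was at -1.15 for pRb loss where p107 was kept, -0.16 for p107 loss in pRb+/+ skin and -1.56 for pRb loss in p107-/- skin, and Sprr at 0.63, 0.15, 1.68 for p107 loss in pRb-/- skin and 1.81. With quantile normalization Sprr was at 0.60 for pRb loss where p107 was kept, 0.063 for p107 loss in pRb+/+ skin and 1.79 for pRb loss in p107-/- skin, and S100a at -1.45 for p107 loss in pRb+/+ skin and 0.059 for pRb loss in p107-/- skin. Without _x_at and _s_at probe sets Lce was at -1.84 for loss of both, and with several symbols Sprr was at 0.50 for pRb loss where p107 was kept. Leaving out an array of the compared genotypes put Lce between -0.97 and -0.73 for pRb loss where p107 was kept, -0.047 and 0.19 for p107 loss in pRb+/+ skin, -1.25 and -1.06 for p107 loss in pRb-/- skin, -2.20 and -2.004 for pRb loss in p107-/- skin, and -2.22 and -1.72 for loss of both. In the same order, Sprr lay between 0.53 and 0.79, 0.40 and 0.54, 1.55 and 1.63, 1.64 and 1.92, and 1.89 and 2.20. S100a lay between -0.05 and 0.35, -1.19 and -0.89, -1.77 and -0.82, -0.31 and 0.01, and -1.85 and -0.88.

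Among 63 uncalled differences of named probe sets, 21 values changed sign. With quantile normalization, p107 loss in pRb-/- skin gave 0.13 for Lce1b, 0.031 for Rptn on 1433210_at and -0.053 for Rptn on 1433211_at, and with array medians subtracted 0.11 for Lce1b. Leaving out each array put that comparison between -0.51 and 0.42 for Lce1b, -1.33 and 0.27 for Sprr3, -1.49 and 1.08 for Rptn on 1433210_at, -1.24 and 1.43 for Rptn on 1433211_at, -1.19 and 0.34 for S100a9, -0.72 and 0.12 for S100a14, -1.97 and 0.061 for S100a5, and -0.022 and 2.00 for Sprr2j-ps. For loss of both it put Rptn on 1433211_at between -0.72 and 0.57, S100a9 between -0.18 and 1.77 and S100a14 between -2.17 and 0.047. With 2 arrays a genotype, the number of arrays limits the precision.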
